A study of Sus scrofa with 20 samples.

Results

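HIF1A, CITED2 and LDHA encode an oxygen-sensing transcription factor subunit, a protein that restrains it and an enzyme gene that it activates. The 3 genes were followed through 4 groups of pig hearts. They were picked by gene symbol from the probe annotation of the array, after differences between these same groups had been seen in them. Their group differences are therefore given as a description, without a test. The symbols matched 6 probe sets of the 23999 tested, 4 for HIF1A and 1 each for CITED2 and LDHA, and 10069 of the tested probe sets, standing for 6765 genes, carried a single symbol.

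Expression was measured with a porcine Affymetrix array in heart tissue of 20 female pigs, 1 array per animal and 5 animals per group. Control pigs had a sham operation. The group called SWOP had 1 session of 2 coronary occlusions of 10 min, with 10 min of reperfusion after each, and a final reperfusion of 24 h before sampling. In the RCO group that session was given 6 times, 12 h apart. The sample labels of this group speak of 6 episodes of 10 min, without the second occlusion that the design text describes. The RCS group had 6 periods of 90 min of low-flow ischemia by coronary stenosis, also 12 h apart. The sources used here give neither the time from the last episode to sampling in RCO and RCS nor the region sampled. They give no breed or age, and no agent or transgene is named for any group. Per the series title, the study asked how preconditioning after chronic ischemia differs from the classical second window, a delayed protection seen about a day after brief ischemia.

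HIF1A is the oxygen-regulated subunit of hypoxia-inducible factor. In well-oxygenated cells prolyl hydroxylases such as EGLN1 mark the protein for VHL-dependent destruction, and in low oxygen it accumulates, pairs with ARNT and recruits the coactivators p300 and CBP to its target genes. CITED2, itself a target of the factor, binds the same domain of p300 and CBP as HIF1A and displaces it. LDHA, a classical target, encodes the lactate dehydrogenase subunit that predominates in tissues that make lactate, while LDHB encodes the subunit that predominates in the heart. The array reports transcripts only, so neither the HIF1A protein nor lactate was measured.

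The tissue label was checked with cardiac muscle markers, of which 9 were measured at percentiles 98.1 to 100 of signal. Array medians lay between 6.75 and 6.82 (log2). RCO replicates 2 and 3 stood apart from the rest of their group on the first principal component of all probe sets, at 44.0 and 29.4 against -18.3 to -3.6 in the other RCO arrays, and lay within the RCS range of 26.4 to 64.3. Results on RCO are therefore also given without these arrays, a choice made after the data had been seen. Every value below is a log2 signal or a difference of log2 signals, so a difference of 1 is a doubling. In whole tissue, fewer cells of a type and less RNA per cell cannot be told apart.

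On the brightest HIF1A probe set the mean was lowest in control, higher in SWOP and RCO, and highest in RCS. The next brightest did not share the higher SWOP mean. The brightest of the 4 HIF1A probe sets stood at the 93.2 percentile of signal. It read 9.90, 9.72, 10.06, 9.88 and 9.75 in control replicates 1 to 5, with a mean of 9.86 ± 0.14 (SD, n = 5). SWOP arrays read 10.16, 10.03, 10.17, 10.05 and 9.96, with a mean of 10.07 ± 0.09. The SWOP and control groups overlapped, with 2 of 5 SWOP arrays above every control array.

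On the RCO arrays this probe set read 9.88, 10.49, 10.42, 10.29 and 10.25, with a mean of 10.27 ± 0.24. RCO replicate 1 lay inside the control range and the other 4 RCO arrays lay above it. RCS arrays read 10.47, 10.64, 10.66, 10.41 and 10.54, with a mean of 10.54 ± 0.11. All 5 RCS arrays lay above every control and every SWOP array, while RCS and RCO overlapped.

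Set against control, the HIF1A mean was 0.21 higher in SWOP (1.16-fold), 0.40 higher in RCO (1.32-fold) and 0.68 higher in RCS (1.60-fold). Each neighbouring step in this order, control to SWOP, SWOP to RCO and RCO to RCS, joins groups whose arrays overlapped. Between protocols the mean was 0.19 higher in RCO than in SWOP, 0.47 higher in RCS than in SWOP and 0.28 higher in RCS than in RCO. Without RCO replicates 2 and 3 the RCO mean exceeded control by 0.28 and SWOP by 0.07. After quantile normalization, which gives every array the same distribution of values, HIF1A in SWOP exceeded control by 0.09.

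The other 3 HIF1A probe sets were dimmer. The brightest of these, at the 62.2 percentile of signal, read 7.55, 6.89, 7.63, 7.30 and 7.21 in control (7.32 ± 0.29) and 6.74, 7.11, 7.43, 7.62 and 7.26 in SWOP (7.23 ± 0.33). Its RCO values were 7.14, 7.99, 8.34, 7.21 and 7.89 (7.71 ± 0.52), and its RCS values were 7.76, 8.02, 7.92, 7.80 and 7.97 (7.89 ± 0.11). RCS again lay wholly above control, by 0.58 in the mean, and wholly above SWOP, by 0.66. RCO exceeded control by 0.40 with overlapping arrays, 3 of 5 above every control array. The highest RCO values, 7.99 and 8.34, were those of replicates 2 and 3, which stood apart. The other RCO arrays read 7.14, 7.21 and 7.89, where control arrays ran from 6.89 to 7.63. In SWOP this probe set stood at -0.08 against control, the opposite sign to the brightest one.

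The 2 dimmest HIF1A probe sets were at the 20.6 and 10.4 percentiles of signal, below the 30 percentile limit used here for dim probe sets. The brighter of them read 4.64 to 5.06 on control arrays and 4.41 to 4.87 on SWOP arrays, with RCO arrays at 4.70 to 5.24 and RCS arrays at 4.80 to 5.14. For the other, control arrays read 4.22 to 4.33 and SWOP arrays 4.18 to 4.43, with RCO arrays at 4.16 to 4.49 and RCS arrays at 4 to 4.40. Both overlapped between all groups, and in RCS they differed from control by 0.16 and -0.09. With the 4 probe sets averaged, HIF1A differed from control by 0.02 in SWOP, 0.22 in RCO and 0.33 in RCS, so the size of the HIF1A difference depends on the probe set that is read.

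**Figure D1:**
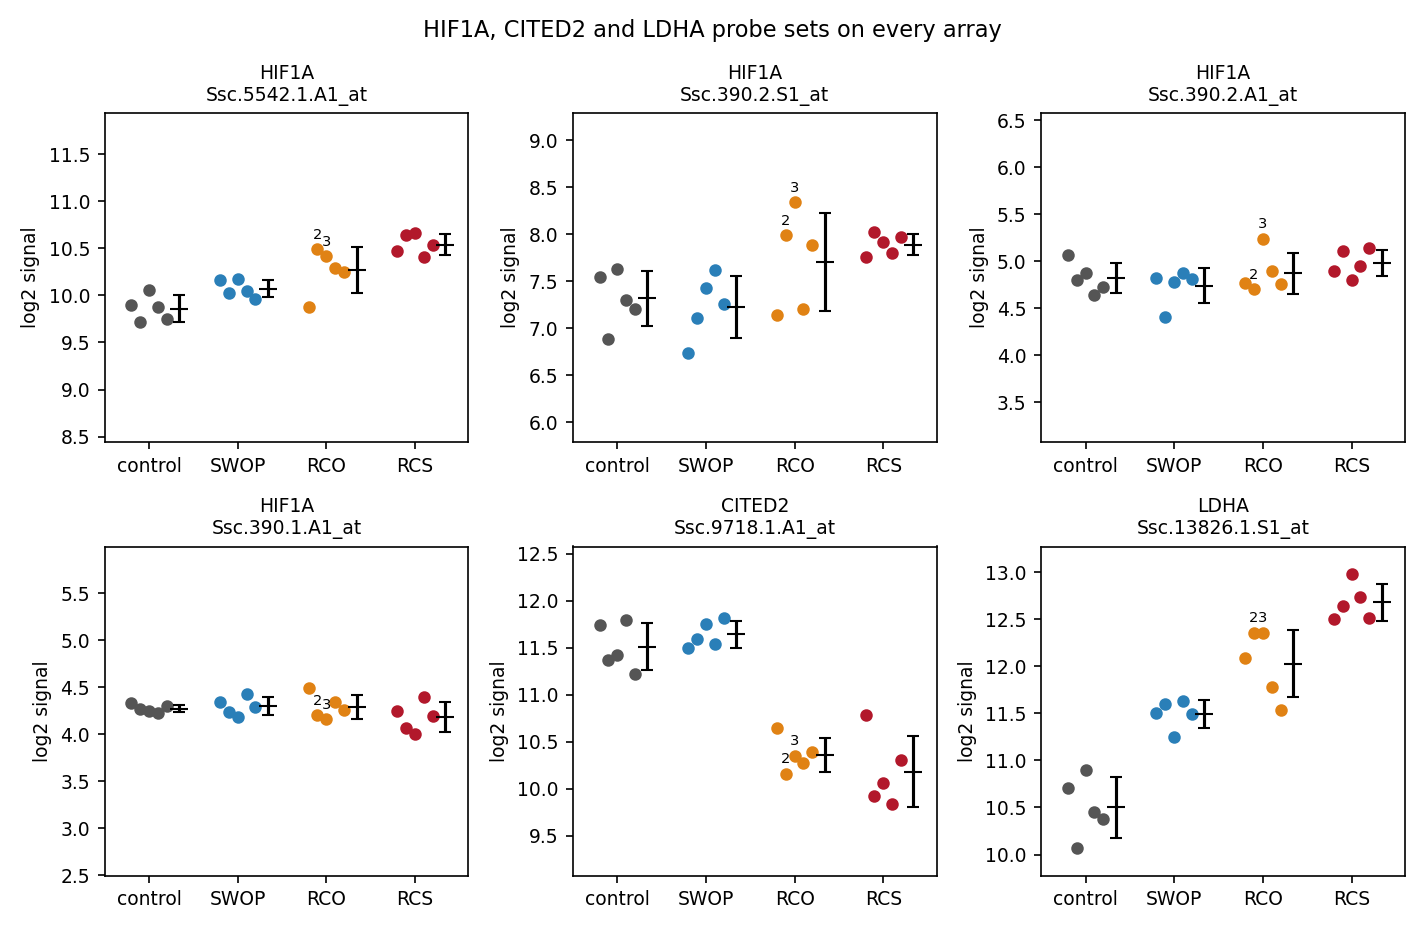
Log2 signal of the 6 probe sets of HIF1A, CITED2 and LDHA on each array, by group; each point is 1 animal, panel titles give the probe set, bars are the mean ± SD of 5 arrays, RCO replicates 2 and 3 are numbered, and every panel spans the same number of log2 units. LDHA climbs from 10.50 in control to 12.68 in RCS, CITED2 stands at 11.51 and 11.64 in control and SWOP and at 10.36 and 10.18 in RCO and RCS, and the groups overlap in the 2 dim HIF1A probe sets.

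CITED2 separated the groups in another way: control and SWOP were alike in level, and both repeated protocols were lower. Its single probe set stood at the 96.2 percentile of signal and read 11.74, 11.37, 11.42, 11.79 and 11.22 in control (11.51 ± 0.25, SD, n = 5). SWOP arrays read 11.50, 11.59, 11.75, 11.54 and 11.81 (11.64 ± 0.14). The SWOP and control ranges overlapped, with a difference of 0.13 between the means and 1 SWOP array above every control array.

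RCO arrays read 10.64, 10.16, 10.35, 10.27 and 10.39 for CITED2 (10.36 ± 0.18). RCS arrays read 10.78, 9.92, 10.06, 9.84 and 10.30 (10.18 ± 0.38). Every RCO and every RCS array lay below every control and every SWOP array, and RCO and RCS overlapped each other. RCO stood at -1.15 against control (2.21-fold lower) and RCS at -1.33 (2.51-fold lower). Against SWOP the differences were -1.28 in RCO and -1.46 in RCS, and RCS stood at -0.18 against RCO.

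CITED2 in RCO was low on all 5 arrays and not only on the 2 that stood apart. Without RCO replicates 2 and 3 the difference from control was -1.07. The highest CITED2 value of each repeated protocol came from replicate 1, at 10.64 in RCO and 10.78 in RCS. These 2 arrays also had the lowest level of the endothelial markers, -0.77 and -0.52 against the control mean, where the other arrays lay between -0.16 and 0.21. The part of endothelium in these CITED2 values was not tested.

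LDHA differed from control more than HIF1A or CITED2 did in each treated group, and its means came in the order control, SWOP, RCO, RCS. Its single probe set stood at the 97.9 percentile of signal and read 10.71, 10.07, 10.90, 10.45 and 10.38 in control (10.50 ± 0.32, SD, n = 5). SWOP arrays read 11.50, 11.60, 11.25, 11.63 and 11.49 (11.49 ± 0.15). No SWOP array was as low as any control array, and the mean was 0.99 higher, a 1.99-fold difference after a single session.

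RCO arrays read 12.09, 12.36, 12.36, 11.78 and 11.54 for LDHA (12.03 ± 0.36). RCS arrays read 12.50, 12.64, 12.98, 12.74 and 12.52 (12.68 ± 0.20). RCS lay wholly above the 3 other groups, and RCO lay wholly above control while RCO replicate 5 fell within the SWOP range. The mean in RCO exceeded control by 1.52 (2.88-fold) and SWOP by 0.53 (1.45-fold). In RCS it exceeded control by 2.17 (4.51-fold), SWOP by 1.18 and RCO by 0.65. Without RCO replicates 2 and 3, RCO exceeded control by 1.30 and SWOP by 0.31.

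Of the 3 genes, each read on its brightest probe set, 1 had non-overlapping arrays in SWOP against control, 2 in RCO against control and 3 in RCS against control. Over all 6765 genes such separation was found for 15.1%, 8.51% and 40.2%. Between protocols it was found for 1 of the 3 in RCO against SWOP, 3 in RCS against SWOP and 1 in RCS against RCO, beside 7.29%, 32.2% and 6.96% of all genes. Since the 3 genes were chosen from these differences, nothing is read from the counts.

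LDHB, the heart-type partner of LDHA, did not share its pattern on the array. Its probe set stood at the 99.8 percentile of signal, and whether so bright a probe set could show a rise was not tested. LDHB read 14.12 to 14.21 on both control and SWOP arrays, 13.87 to 14.10 on RCO arrays and 13.59 to 14.09 on RCS arrays. The SWOP difference from control was 0.01 ± 0.08 (SE, limma adjusted p = 0.97), and in RCO it was -0.19 ± 0.08 (adjusted p = 0.12). In RCS, LDHB fell by 0.35 ± 0.08 (adjusted p = 0.0015), from 14.16 ± 0.03 to 13.81 ± 0.19, with every RCS array below every control array. The LDHB symbol is shared by 2 pig gene identifiers in RefSeq, so the probe set may read either.

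Taken on the same animal, LDHA minus LDHB, each measured from its own control mean, ran from -0.42 to 0.39 in control. The same quantity was 0.78 to 1.11 on SWOP arrays, 1.10 to 2.15 on RCO arrays and 2.07 to 3.05 on RCS arrays. Every treated array lay above every control array on this measure, as it already did for LDHA alone. The separation from control therefore adds nothing to that of LDHA. Only the lowest RCO array reached the SWOP range, and the highest RCO array exceeded the lowest RCS array.

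HIF1A minus CITED2, computed in the same way, ran from -0.26 to 0.29 in control and from -0.20 to 0.31 in SWOP. It was 0.89 to 1.98 in RCO, with a mean of 1.55 ± 0.41 (SD, n = 5), and 1.34 to 2.37 in RCS, with a mean of 2.01 ± 0.42. SWOP arrays therefore overlapped the controls on this measure, with the highest SWOP array just above the highest control array. RCO and RCS lay apart from both, as they already did for CITED2 alone. The separation therefore adds nothing to that of CITED2. LDHA read 11.25 or more on every SWOP array. The relation of LDHA to this measure was not tested.

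**Figure D2:**
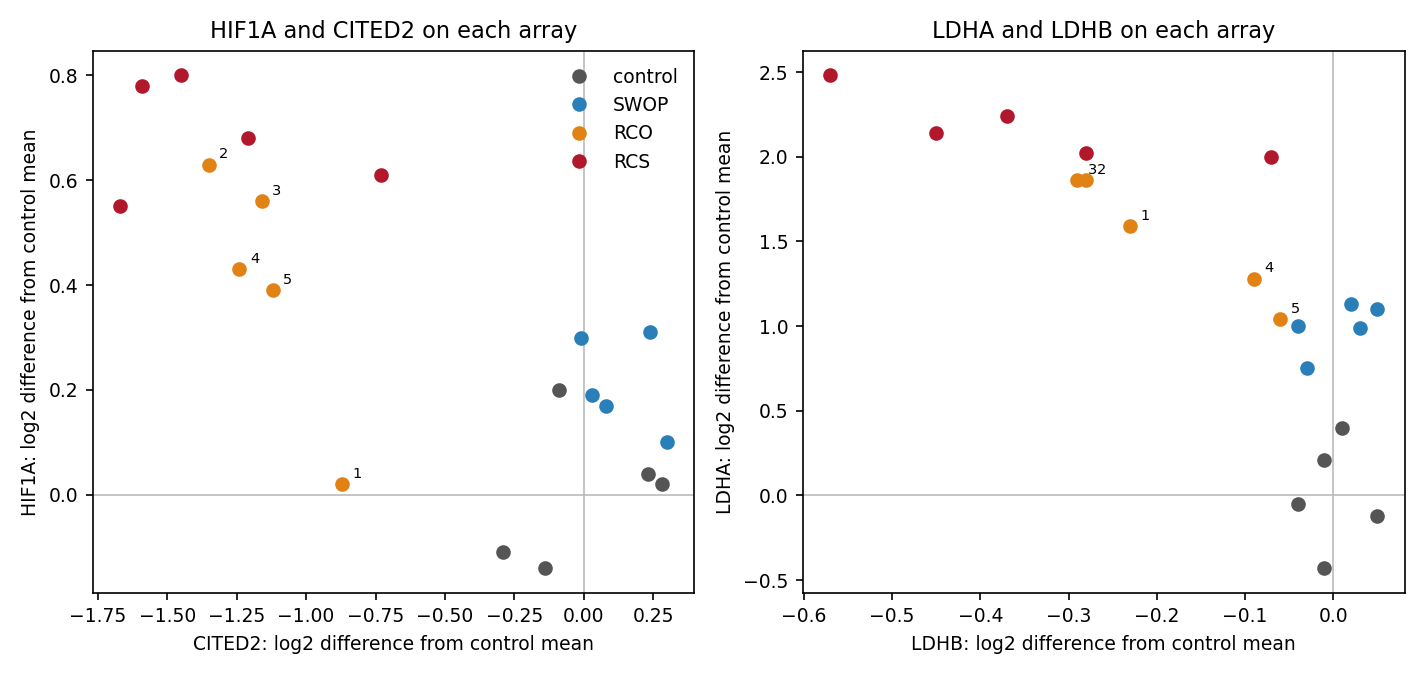
Differences from the control mean (log2) on each array, HIF1A against CITED2 in one panel and LDHA against LDHB in the other; each point is 1 animal, colours are the groups, and RCO replicates are numbered. SWOP points overlap the CITED2 range of the controls, and RCO and RCS points lie between -1.67 and -0.73 on that axis. LDHA spreads to 2.17 in the RCS mean while LDHB moves by -0.35.

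The proteins that mark, degrade or assist HIF1A were read from a list of 25 genes of the HIF machinery, of which 12 were measured. With limma, 1 of the 12 passed as higher and 0 as lower in SWOP, beside 4.66% and 3.5% of all genes. In RCO 0 of 12 passed in either direction (2 higher and 1 lower at an unadjusted p below 0.05), beside 11.3% and 4.26% of all genes. These counts read each gene on its brightest probe set. In RCO other probe sets passed as lower for SIAH2 (4) and EGLN1 (1) and as higher for HSP90AA1 (1). In RCS 4 rose, 3 fell and 5 did not pass, beside 28.8% and 25.7% of all genes. Among the 4 were HSP90AA1 and RACK1, for which other probe sets passed in the opposite direction. The list medians were 0.04, 0.03 and -0.07, where those of all genes were 0.04, 0.01 and 0.

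CITED1, a relative of CITED2 that also binds p300 and CBP, had the largest difference of this list in RCS. It read 9.13 to 9.78 in control and 7.93 to 9.04 in RCS, with no overlap, and fell by 1 ± 0.17 (SE, limma adjusted p = 0.00014). In SWOP and RCO it stood at 0.33 and -0.21 against control and did not pass (adjusted p = 0.22 and 0.46). The test between the repeated protocols gave -0.79 ± 0.17 for RCS minus RCO (adjusted p = 0.0054). CITED1 arrays of RCS and RCO overlapped, as CITED2 arrays of these groups did.

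EGLN1, the main prolyl hydroxylase that marks HIF1A, stood at 10.43 ± 0.30 in control and fell in RCS by 0.34 ± 0.11 (SE, limma adjusted p = 0.017). That call was lost without control replicate 1 or 2 (adjusted p = 0.057 for each) and with all its probe sets averaged (-0.29, adjusted p = 0.05). In RCO EGLN1 stood at -0.29 against control and did not pass (adjusted p = 0.094), while 1 other EGLN1 probe set passed as lower. It passed in RCO with its probe sets averaged (-0.39, adjusted p = 0.032) and after quantile normalization (-0.38, adjusted p = 0.035). Both RCO and RCS lay below SWOP, by -0.48 and -0.53 (adjusted p = 0.013 and 0.0014). EPAS1, the HIF2 alpha subunit, did not pass in SWOP, RCO or RCS against control, at 0.13, -0.26 and -0.32 (adjusted p = 0.65, 0.35 and 0.14).

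ARNT, the partner that HIF1A needs to bind DNA, was read by a dim probe set at the 20.3 percentile of signal. It stood at -0.25 in SWOP (limma adjusted p = 0.057), -0.08 in RCO (adjusted p = 0.54) and -0.29 in RCS (adjusted p = 0.0054), the last lost after quantile normalization (-0.15, adjusted p = 0.11). SIAH2, a ubiquitin ligase that acts on the prolyl hydroxylases, rose in SWOP by 0.44 ± 0.12 (SE, adjusted p = 0.033). Leaving out single arrays moved the SIAH2 adjusted p between 0.011 and 0.074, and 8 of 20 such fits lost the call. It was also lost with the 5 SIAH2 probe sets averaged (0.13, adjusted p = 0.28) and after quantile normalization (0.32, adjusted p = 0.13). In RCO and RCS the brightest SIAH2 probe set stood at 0.18 and -0.02 (adjusted p = 0.34 and 0.91). Of its 4 other probe sets, 4 passed as lower in RCO and 3 in RCS, so no direction is given for SIAH2 in RCO. EGLN3, VHL, EP300 and CREBBP were not analysed here.

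HSP90 proteins are chaperones that stabilise HIF1A, and both cytosolic forms were measured. In RCS HSP90AB1 rose by 0.31 ± 0.07 (SE, limma adjusted p = 0.0018). HSP90AA1 rose by 0.42 ± 0.12 on its brightest probe set (adjusted p = 0.0095), but of its 4 other probe sets 2 passed in the same and 2 in the opposite direction, and after quantile normalization the value was 0.29 (adjusted p = 0.074). RACK1, which takes HIF1A to degradation without oxygen sensing, rose by 0.27 ± 0.06 (adjusted p = 0.0018), while its other probe set passed in the opposite direction. No direction is therefore given for HSP90AA1 and RACK1 as genes.

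Genes of glucose uptake and glycolysis known as targets of the factor had list medians far from the LDHA differences. Of 23 listed, 17 were measured, LDHA not among them. In SWOP 2 of the 17 rose, 0 fell and 15 did not pass with limma (6 higher and 0 lower at an unadjusted p below 0.05), beside 4.66% and 3.5% of all genes that rose and fell. In RCO the counts were 2, 0 and 15 (4 higher and 0 lower unadjusted), beside 11.3% and 4.26%, and in RCS they were 4, 1 and 12, beside 28.8% and 25.7%. The list medians were 0.22 in SWOP, -0.04 in RCO and 0.06 in RCS, against 0.99, 1.52 and 2.17 for LDHA.

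ENO1, the glycolytic enzyme enolase, had the largest difference of this list. Control arrays read 10.02 to 10.37 and SWOP arrays 10.37 to 10.76, while RCO arrays spread from 10.31 to 12.31 and RCS arrays from 11.70 to 12.67. In RCS it rose 3.97-fold, by 1.99 ± 0.26 (SE, limma adjusted p = 1.3e-05), with no overlap. In RCO it rose by 1.07 ± 0.26 (adjusted p = 0.014), and RCO replicates 2 and 3 were the highest at 12.31 and 11.82. Without those arrays the RCO difference was 0.54 (adjusted p = 0.11), and RCS exceeded all RCO arrays together by 0.92 ± 0.26 (adjusted p = 0.023).

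SLC16A3, the transporter that exports lactate from glycolytic cells, read 4.47 to 5.84 on control arrays, 5.02 to 6.03 on SWOP arrays, 5.71 to 6.74 on RCO arrays and 6.27 to 7.50 on RCS arrays. It rose in RCS by 1.51 ± 0.26 (SE, limma adjusted p = 0.00017), again with no overlap. In RCO it rose by 0.89 ± 0.26 (adjusted p = 0.036), a call lost without RCO replicates 2 and 3 (0.76, adjusted p = 0.16) and in 5 of 20 fits without a single array. SLC2A1, the basal glucose transporter, rose in RCS by 0.70 ± 0.20 (adjusted p = 0.0078). In SWOP SLC2A1 stood at 0.63 ± 0.20 and did not pass (adjusted p = 0.057), with 4 arrays at 9.01 to 9.14 and replicate 1 at 8.31.

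PFKP, a phosphofructokinase, rose in SWOP by 0.59 ± 0.15 and in RCS by 0.49 ± 0.15 (SE, limma adjusted p = 0.024 and 0.0098), and stood at 0.20 in RCO (adjusted p = 0.41). Its SWOP call was lost without SWOP replicate 2 (adjusted p = 0.063), SWOP replicate 5 (0.053) or control replicate 4 (0.069). TPI1, triose phosphate isomerase, rose in SWOP by 0.31 ± 0.09 (adjusted p = 0.041, lost in 8 of 20 fits without a single array) and stood at 0.14 and -0.01 in RCO and RCS. PGM1, which links glycogen to glycolysis, fell in RCS by 0.74 ± 0.14 (adjusted p = 0.00026) and was lower there than in RCO by -0.60 (adjusted p = 0.0068). PGK1, phosphoglycerate kinase, chosen for mention after its values were seen, did not pass in SWOP, RCO or RCS, at 0.25, 0.22 and 0.17.

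Genes that handle lactate and pyruvate beside LDHA included 10 that fell in RCS and 0 that rose. Of 22 listed, 16 were measured. With limma 0 rose and 0 fell in SWOP (0 and 3 at an unadjusted p below 0.05), 0 rose and 2 fell in RCO (0 and 8 unadjusted), and 0 rose and 10 fell in RCS (0 and 11 unadjusted). The shares over all genes were 4.66% higher and 3.5% lower in SWOP, 11.3% and 4.26% in RCO, and 28.8% and 25.7% in RCS. List medians were 0.05, -0.29 and -0.39. The RCO calls, LDHD and BSG, were both lost without RCO replicates 2 and 3, at -0.37 each (adjusted p = 0.11 and 0.17).

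LDHD, which oxidizes D-lactate in mitochondria, read 7.38 to 7.77 in control and 6.25 to 6.91 in RCS, with no overlap. It fell in RCO by 0.52 ± 0.12 (SE, limma adjusted p = 0.013) and in RCS by 0.96 ± 0.12 (adjusted p = 1e-05), and RCS was lower than RCO by -0.44 (adjusted p = 0.02). GPT, which interconverts pyruvate and alanine, fell in RCS by 1.03 ± 0.18 (adjusted p = 0.00019). Subunits of the pyruvate dehydrogenase complex, which commits pyruvate to oxidation, fell in RCS: PDHA1 by 0.73 ± 0.14, PDHB by 0.53 ± 0.12 and DLD by 0.60 ± 0.13 (adjusted p = 0.00037, 0.0014 and 0.0014). None of PDHA1, PDHB and DLD passed in SWOP or RCO against control. BSG, the chaperone of lactate transporters, fell in RCO by 0.44 ± 0.14 (adjusted p = 0.043) and stood at -0.31 in RCS (adjusted p = 0.063).

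Cardiac muscle markers moved along with these RCS values. Of 9 measured, 7 fell in RCS and 2 in RCO with limma, beside 25.7% and 4.26% of all genes. The level of the list against the control mean was -0.71 to -0.24 on RCS arrays, -0.31 to -0.11 on RCO arrays and -0.10 to 0.04 on SWOP arrays. Their part in the lower pyruvate dehydrogenase, LDHB and CITED2 values of RCS and RCO was not tested. Among all genes 28.8% rose in RCS and 11.3% in RCO. Fibroblast markers, of which 4 of 6 rose in RCS and 2 of 6 in RCO, stood at 0.78 to 1.55 on RCS arrays and -0.14 to 1.32 on RCO arrays. Macrophage markers, of which 4 of 9 rose in RCS and 3 of 9 in RCO, stood at 0.66 to 0.94 and 0.25 to 1.68, and RCO replicates 2 and 3 had 1.68 and 1. On SWOP arrays the macrophage list stood at -0.33 to 0.44 and in control at -0.34 to 0.38.

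Smooth muscle markers stood at -0.22 to 0.37 on control arrays, 0.26 to 0.93 on SWOP arrays, 0.16 to 1.09 on RCO arrays and 0.91 to 1.40 on RCS arrays. Their group means had the same order as those of LDHA, but that order was not particular to smooth muscle. The fibroblast list had it too, with means of 0.13, 0.65 and 1.17 in SWOP, RCO and RCS. So did the macrophage list, with means of 0.04, 0.74 and 0.83. Of 4 measured, 1 rose with limma in SWOP, beside 4.66% of all genes, and 1 in RCO, beside 11.3%. In RCS 3 rose and 1 fell, beside 28.8% and 25.7% of all genes. The gene that rose in SWOP was CNN1, the smooth muscle protein calponin, at 1.49. The part of fibroblast, macrophage and smooth muscle markers in the higher HIF1A, LDHA, ENO1 and SLC16A3 values was not tested.

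Array controls moved along with the same arrays. The 3′ minus 5′ signal of actin, a measure of RNA integrity and labelling, was 1.24 to 1.96 in control, 1.22 to 1.70 in SWOP and 0.51 to 0.73 in RCS, and it was 0.78 and 0.79 on RCO replicates 2 and 3. The same measure of GAPDH went the other way in RCS, at -0.06 to 0.19 against -0.16 to -0.06 in control. It was -0.17 to -0.01 in SWOP and -0.23 to 0.08 in RCO. Spike-in signal was 10.25 to 10.33 on control, 10.12 to 10.59 on SWOP, 10.19 to 10.76 on RCO and 9.90 to 10.12 on RCS arrays. The 2 highest values were those of SWOP replicate 1 and RCO replicate 1. The part of these array controls in the HIF1A, CITED2, LDHA and listed gene values of RCS and RCO was not tested.

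**Figure D3:**
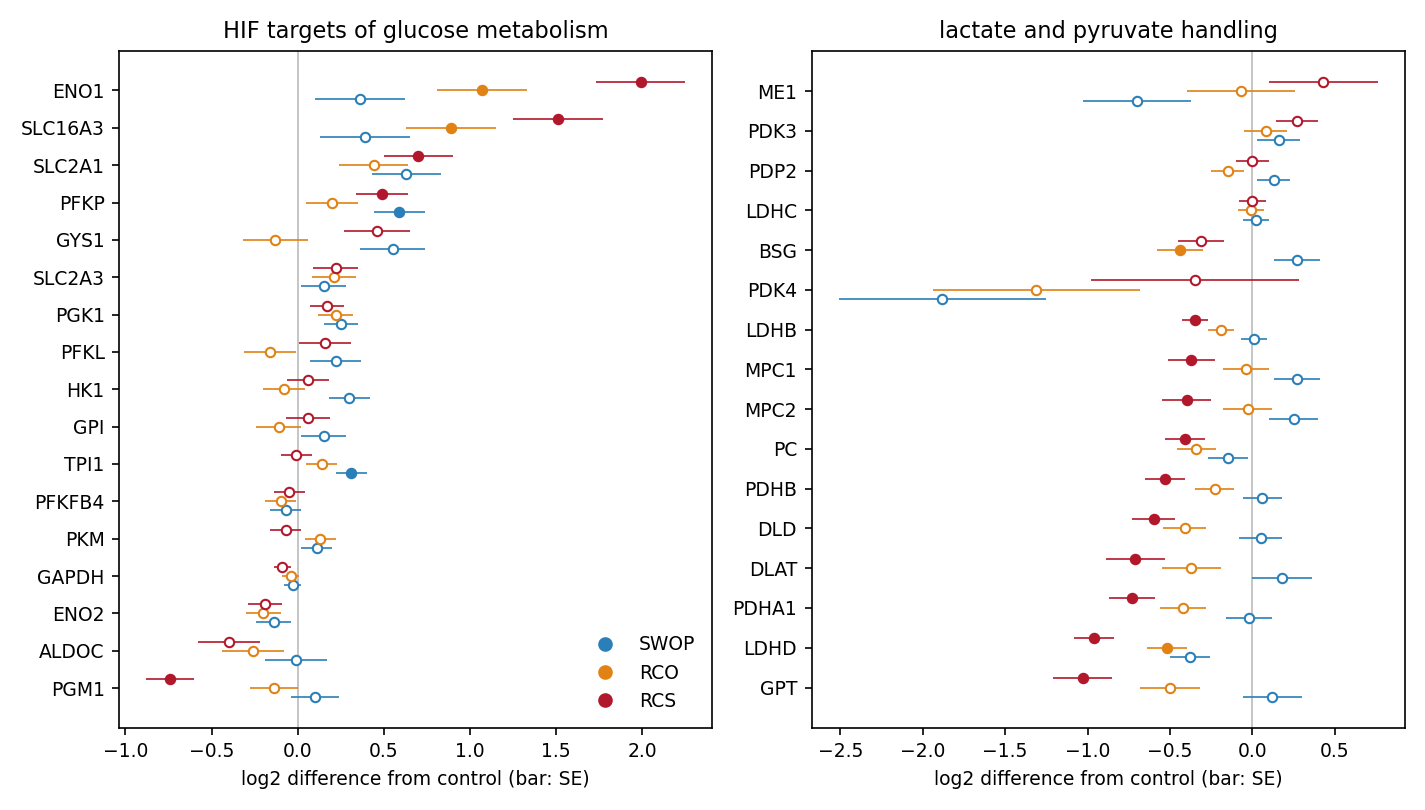
Log2 difference from control of each measured gene of 2 lists, HIF targets of glucose metabolism and lactate and pyruvate handling, in SWOP, RCO and RCS; bars are standard errors from the fit over 20 arrays, and filled points passed at an adjusted p below 0.05. ENO1 and SLC16A3 reach 1.99 and 1.51 in RCS, while 10 of the 16 lactate and pyruvate genes lie below 0 as filled points in RCS.

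The remaining list held 48 targets of the factor with other functions, of which 33 were measured. In SWOP 1 rose, 2 fell and 30 did not pass with limma, beside 4.66% and 3.5% of all genes that rose and fell. In RCO 4 rose, 1 fell and 28 did not pass, beside 11.3% and 4.26%. In RCS 12 rose (36.4%), 7 fell (21.2%) and 14 did not pass, beside 28.8% and 25.7% of all genes. Among the 12 were BHLHE40 and LOX, each with another probe set that passed in the opposite direction. The list medians were -0.02, 0.13 and 0.07. VEGFA, the vascular growth factor, differed from control by -0.02, 0.13 and -0.06 in SWOP, RCO and RCS on its brightest probe set (adjusted p = 0.96, 0.70 and 0.81). Of its other probe sets, 1 passed as lower in RCS. With all 4 averaged, the RCS difference was -0.23 (adjusted p = 0.18). Without RCO replicates 2 and 3 the RCO difference of VEGFA was 0.47 (adjusted p = 0.13).

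ERO1A, an oxidase that forms disulfide bonds in the endoplasmic reticulum, read 6.81 to 7 on control arrays and 6.49 to 6.79 on SWOP arrays, with RCO arrays at 7.04 to 7.83 and RCS arrays at 7.81 to 8.20. It rose in RCS 2.13-fold, by 1.09 ± 0.12 (SE, limma adjusted p = 2.3e-06). RCO against control gave 0.39 ± 0.12 (adjusted p = 0.043), and 0.18 without RCO replicates 2 and 3 (adjusted p = 0.30). RCS exceeded RCO by 0.70 ± 0.12 (adjusted p = 0.0018). SWOP stood at -0.27 against control (adjusted p = 0.16), so ERO1A did not share the higher SWOP level of LDHA.

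BHLHE40, a transcriptional repressor, rose in RCO by 1.42 ± 0.28 (SE, limma adjusted p = 0.004), from 6.45 to 7.59 in control to 7.75 to 9.08 in RCO, and by 1.55 without RCO replicates 2 and 3 (adjusted p = 0.014). Its other probe set had the opposite sign in RCO and did not pass. In RCS BHLHE40 stood at 1.12 (adjusted p = 0.0033) on the brightest probe set while the other passed in the opposite direction, so no direction is given for it there. HMOX1, which degrades heme, rose in RCS by 1.79 ± 0.38 (adjusted p = 0.00095). In RCO HMOX1 read 10.38 and 9.67 on replicates 2 and 3 and 7.67 to 8.43 on the others. MIF, a cytokine, rose in RCS by 0.91 ± 0.15 (adjusted p = 0.00013) and was 0.50 higher there than in RCO (adjusted p = 0.031).

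P4HA2 and PLOD1 hydroxylate collagen chains. In RCS P4HA2 rose by 0.99 ± 0.17 and PLOD1 by 0.78 ± 0.15 (SE, limma adjusted p = 0.00019 and 0.00041). Their RCO differences, 0.61 and 0.49 (adjusted p = 0.03 and 0.042), were 0.28 and 0.25 without RCO replicates 2 and 3 and did not pass. Among RCO arrays the fibroblast marker levels given above were highest on those same replicates, at 1.26 and 1.32, and their part in these values was not tested. MXI1, an antagonist of MYC, fell in RCO by 0.46 ± 0.12 (adjusted p = 0.02), and without RCO replicates 2 and 3 the value was -0.30 (adjusted p = 0.15).

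TFRC, the transferrin receptor, rose in SWOP by 0.95 ± 0.29 (SE, limma adjusted p = 0.048), a call lost in 13 of 20 fits without a single array. In RCS it stood at -0.62 against control (adjusted p = 0.078) and was lower than in SWOP by -1.58 (adjusted p = 0.00041). EPO and TF, encoding erythropoietin and transferrin, were read by dim probe sets at the 21.5 and 22.1 percentiles of signal. In SWOP EPO and TF stood at -0.41 and -0.42 against control (adjusted p = 0.034 and 0.035), lost in 8 and 7 of 20 such fits. EPO in RCS stood at -0.57 (adjusted p = 0.00044) with no overlap, a call kept in all 20 such fits. TF in RCS stood at -0.52 (adjusted p = 0.0015), and its other probe set had the same sign and did not pass. PDK1 and BNIP3 were not analysed here.

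Partners and regulators of CITED2 were the smallest list, with 8 of 14 genes measured. With limma 0 rose and 1 fell in SWOP (0 and 2 at an unadjusted p below 0.05), 0 rose and 1 fell in RCO (0 and 1 unadjusted), and 1 rose and 1 fell in RCS. Over all genes 4.66% rose and 3.5% fell in SWOP, 11.3% and 4.26% in RCO, and 28.8% and 25.7% in RCS. FOXO3, a transcription factor reported to induce CITED2, read 6.75 to 7.24 in control and 6.18 to 6.50 in SWOP. It fell in SWOP by 0.70 ± 0.11 (SE, adjusted p = 0.0065), in RCO by 0.48 ± 0.11 (adjusted p = 0.012) and in RCS by 0.46 ± 0.11 (adjusted p = 0.0031). FOXO3 was thus lower in all 3 treated groups, whereas CITED2 was lower in RCO and RCS and overlapped control in SWOP. Without RCO replicates 2 and 3 the FOXO3 difference in RCO was -0.46 (adjusted p = 0.06).

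PPARG, a nuclear receptor that CITED2 can coactivate, rose in RCS by 0.48 ± 0.13 (SE, limma adjusted p = 0.0045) and was 0.52 higher there than in RCO (adjusted p = 0.01). In SWOP and RCO PPARG stood at -0.31 and -0.04 against control and did not pass (adjusted p = 0.12 and 0.87). PPARA, also a CITED2 partner and mentioned after its values were seen, did not pass in SWOP, RCO or RCS, at -0.35, -0.16 and -0.38, on a probe set at the 25.9 percentile of signal.

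**Figure D4:**
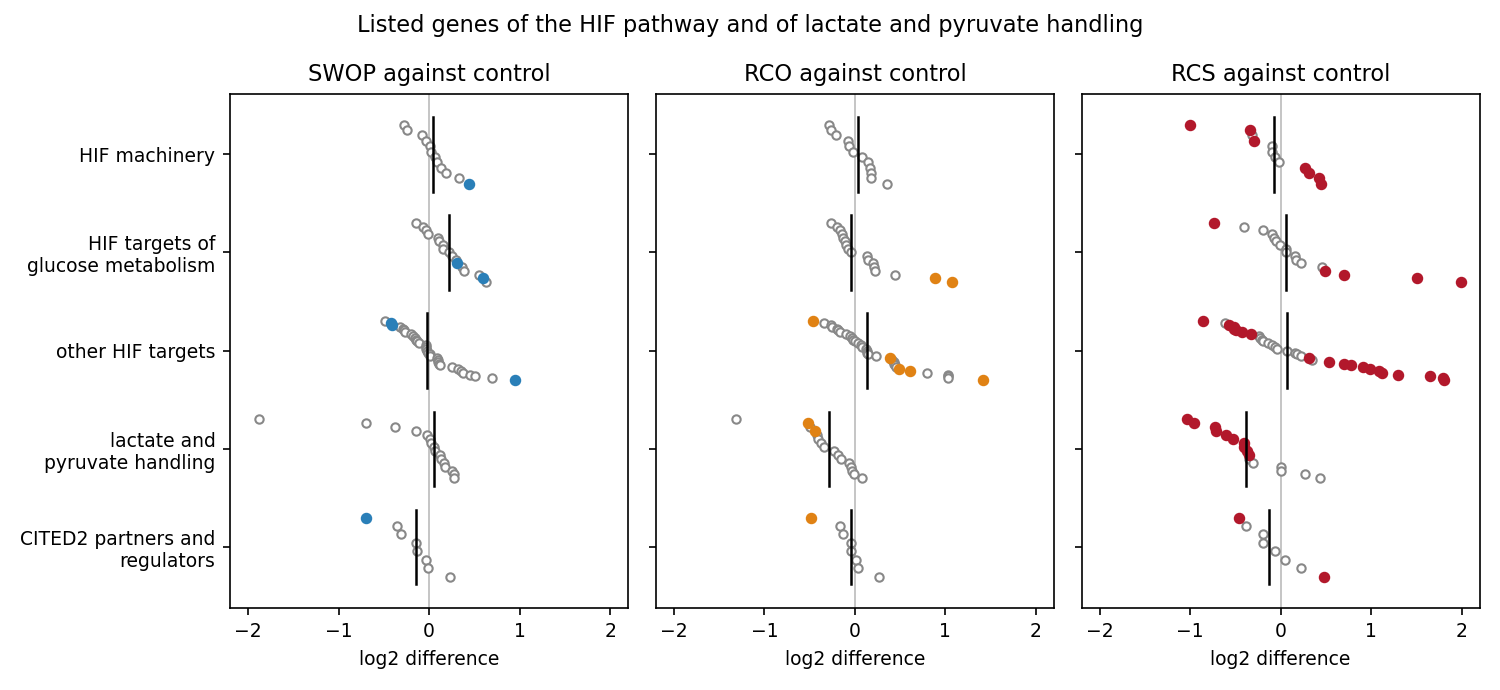
Log2 difference from control of every measured gene of the 5 lists in SWOP, RCO and RCS; each point is 1 gene on its brightest probe set, filled points passed at an adjusted p below 0.05, and the black line is the list median. The medians lie between -0.39 and 0.22, and the lactate and pyruvate list in RCS has the lowest, with 10 filled points below 0 and 0 above.

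Over the 5 lists together, 86 of 132 genes were measured, and 8.14% of them passed in SWOP against control, 11.6% in RCO and 50% in RCS. Over all genes 8.16%, 15.6% and 54.5% passed with limma in the same comparisons. These shares are near those of genes in general, so the lists do not stand out by their number of calls. Between protocols 3 rose and 7 fell in RCO against SWOP, beside 5.54% and 6.4% of all genes. In RCS against SWOP 17 rose and 19 fell, beside 20.3% and 17.7%, and in RCS against RCO 6 rose and 8 fell, beside 11.7% and 9.9%. The shares that passed were 11.6%, 41.9% and 16.3%, beside 11.9%, 38% and 21.6% of all genes. Comparisons that use the same control or SWOP arrays are not independent of each other.

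Other scalings moved the balance of higher and lower calls over all genes. In SWOP 57.1% of the called genes were higher as deposited, 42.7% after quantile normalization and 70.9% with each array centred on its median. In RCO the share was 72.7% as deposited and 60.6% after quantile normalization. The listed genes that passed in RCO were 6 higher and 4 lower as deposited, and 6 higher and 8 lower after quantile normalization. LDHA exceeded control under quantile normalization by 0.88, 1.43 and 2.08 in SWOP, RCO and RCS, and CITED2 stood at 0.03, -1.23 and -1.46.

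Genes whose patterns were most like those of the 3 genes were found over the 20 arrays, as the smallest root mean square difference between log2 values taken from each gene's own control mean, among 5769 candidates. For HIF1A they were GOLM1 (0.112), HDAC1 (0.120), PRR13 (0.142), RCL1 (0.142) and BZW1 (0.143), where the median candidate had 0.489. GOLM1 encodes a Golgi protein and HDAC1 a histone deacetylase. GOLM1 differed from control by 0.16, 0.42 and 0.63 in SWOP, RCO and RCS, against 0.21, 0.40 and 0.68 for HIF1A.

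CITED2 was most like PINK1 (0.238), CYP27A1 (0.298), LPL (0.317), ECH1 (0.327) and RNF135 (0.338), with a median of 0.959 over candidates. PINK1 encodes a kinase of mitochondrial quality control, LPL the lipoprotein lipase and ECH1 an enzyme of fatty acid oxidation. PINK1 stood at -0.06, -0.95 and -1.32 against control, LPL at -0.11, -0.98 and -1.10. All 5 thus lay near control in SWOP and below it in RCO and RCS, as the measure of likeness requires.

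LDHA was most like PCLAF (0.326), MELK (0.332), RCN1 (0.364), DNASE1L1 (0.372) and KDELR3 (0.373), with a median of 1.41 over candidates. PCLAF and MELK are expressed in dividing cells, and RCN1 and KDELR3 encode proteins of the secretory pathway. PCLAF differed from control by 1.06, 1.77 and 2.41. HIF1A ranked 708 among the 5769 candidates in likeness to LDHA, at 1.04, and CITED2 ranked 5743. In likeness to HIF1A, LDHA ranked 5594 at the same 1.04, where the median candidate had 0.489. These likenesses describe shape and size over shared arrays and carry no test.

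**Figure D5:**
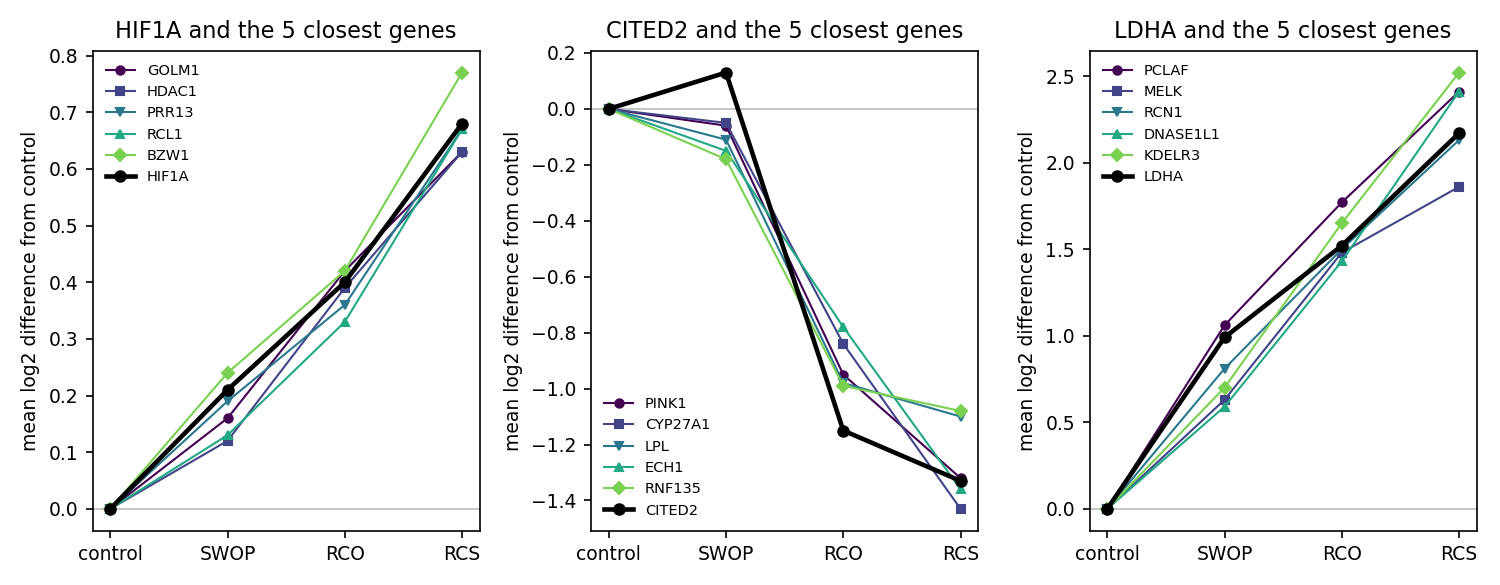
Group mean differences from control (log2) in SWOP, RCO and RCS for HIF1A, CITED2 and LDHA and the 5 genes closest to each; lines join the 3 differences of 1 gene and have no time axis. The HIF1A set climbs to between 0.63 and 0.77 in RCS, the CITED2 set lies between -0.18 and 0.13 in SWOP and between -1.08 and -1.43 in RCS, and the LDHA set lies between 1.86 and 2.52 in RCS.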

How the data were processed

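The deposited table holds log2 signals of 24123 probe sets on 20 arrays. The authors made them with RMA and MAS5, as the submitters' processing notes name the tools without versions, and the log base was taken as 2 from the values. After 124 control spots were left out, group means of all 20 arrays were fitted with limma 3.58.1 in R 4.3.3 (lmFit, eBayes, 16 residual degrees of freedom), and 6 comparisons were adjusted by Benjamini-Hochberg over 23999 probe sets, with a threshold of 0.05. The number of arrays limits the precision. The p-values rest on a spread between pigs of the same group that is pooled over the 4 groups of 5 pigs and moderated across probe sets. They do not follow the spread of the compared groups alone. The genes and lists were chosen with earlier results of these data known, so HIF1A, CITED2 and LDHA carry no test. A gene was read on its probe set of highest mean signal. Named were, per list and comparison with control, up to 6 passing genes of smallest p, a fixed set of 13 pathway genes, and the 5 genes closest to each of the 3. Names came from the platform's probe table. The fit was tested on simulated arrays. Alternatives were other scalings, filters, weights, a replicate block and left-out arrays. Tables were made with pandas 2.3.3 and numpy 2.4.6 in Python 3.11.15, and figures with matplotlib 3.10.9.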

Additional observations from a re-analysis of the deposited data

Results flagged for a closer look

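Among 40 probe sets of the 3 genes and of named pathway genes, 160 groups of 5 arrays were examined for an array far from the others, and 7 were found; chance alone gives about 1 in 20. The brighter of the 2 dim HIF1A probe sets read 4.41 on SWOP replicate 2, with the other SWOP arrays at 4.78 to 4.87. PFKP read 8.99 on the same array, against 8.27 to 8.47. SLC2A1 read 8.31 on SWOP replicate 1, against 9.01 to 9.14, and GPT read 9.03 on SWOP replicate 3, against 9.41 to 9.46. On SWOP replicate 5, HSP90AB1 read 12.30 (others 12.49 to 12.55) and PDHB read 12.63 (others 12.44 to 12.47). BSG read 10.09 on RCS replicate 2, against 10.42 to 10.52. No array of the brightest HIF1A, CITED2 or LDHA probe set stood out in this way.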

How the results depend on the processing

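Every difference of HIF1A, CITED2 and LDHA kept its sign under the alternatives. Averaging the 4 HIF1A probe sets gave 0.02, 0.22 and 0.33 for SWOP, RCO and RCS minus control, 0.31 for RCS minus SWOP and 0.11 for RCS minus RCO. In RACK1 it reversed the RCS difference to -0.09 (adjusted p = 0.23), because its probe sets oppose each other. Leaving out single arrays gave 0.18 to 0.26, 0.35 to 0.50 and 0.65 to 0.73 for HIF1A in SWOP, RCO and RCS minus control, 0.06 to 0.20, -1.22 to -1.08 and -1.48 to -1.24 for CITED2, and 0.88 to 1.09, 1.42 to 1.65 and 2.07 to 2.27 for LDHA. Counts of listed genes with limma depended on the fit, and the cause was not tested beyond the construction of each alternative. In SWOP against control 4 passed as higher: 8 without the 2 arrays of highest spike-in signal, 13 with array weights, 13 with only the compared groups fitted and 1 after quantile normalization. The 3 lower became 5 without RCO replicates 2 and 3, 7 with weights, 7 with only the compared groups, 1 without dim probe sets and 1 after quantile normalization. Single arrays left out gave 0 to 6 and 1 to 4, with 0 higher without SWOP replicate 2 or 5 or control replicate 4. In RCO the 6 higher became 2 and the 4 lower 0 without RCO replicates 2 and 3, and 1 and 1 with only the compared groups, while the lower were 8 with probe sets averaged and 8 after quantile normalization. Single arrays left out gave 2 to 10 and 2 to 9, with 2 higher without RCO replicate 2 or 3 or control replicate 5. The 21 higher and 22 lower of RCS became 20 to 23 and 20 to 24 over single arrays left out. For RCO against SWOP the 3 higher became 7 without the spike-in arrays and 6 with weights, and the 7 lower became 1 without RCO replicates 2 and 3, 4 with only the compared groups and 4 after quantile normalization, with 2 to 8 and 2 to 9 over single arrays left out. The RCS against SWOP counts of 17 and 19 were 15 to 20 and 18 to 20. For RCS against RCO the 6 higher became 3 without the spike-in arrays, 13 without RCO replicates 2 and 3 and 2 with only the compared groups, and the 8 lower became 18, 13 with weights and 1 with only the compared groups, with 2 to 11 and 3 to 18 over single arrays left out, the highest without RCO replicate 2. With the replicate block 7 were higher in SWOP against control and 11 lower in RCO against SWOP. Replicate numbers were not taken to pair the animals: same-numbered arrays correlated at -0.179 to 0.44 and matched best in 9 of 30 cases, and in RCS against RCO, the highest, at 0.0775 to 0.44 and in 3 of 5. Of named genes that passed, 1 of 7 in SWOP, 1 of 10 in RCO and 21 of 25 in RCS kept their call and direction under every alternative run.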
